A study of Mus musculus with 7 samples.

Results

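Antiviral interferon-stimulated genes were followed over 7 arrays of mouse macrophages grown from bone marrow. The group was a list of 48 symbols of antiviral interferon-stimulated genes. It was not taken from a threshold on these arrays, but it was chosen with earlier results of these data known. The shares of all genes given beside its counts are therefore descriptions and not tests. A probe set annotated with a single symbol was found for 46 of the 48, out of 18193 genes measured in this way. Isg15 and Ifi44 had none and are not analysed here. Where a gene had several such probe sets the brightest on average was used. The study asked which genes muramyl dipeptide (MDP, a fragment of bacterial cell wall sensed inside the cell) and Pam3CSK4 (a synthetic lipopeptide sensed by Toll-like receptors at the cell surface) switch on in naive macrophages, and which of them respond differently in macrophages that had met a ligand before.

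Each culture had a pretreatment of 24 h and a second exposure of 3 h, and gave 1 Affymetrix array. MDP was used at 10 mg/ml and Pam3CSK4 at 1 mg/ml, as the labels write these doses, and whether milligrams or micrograms were meant could not be settled from the sources used here. The 3 naive conditions had no ligand in the first 24 h and then none (unstimulated), MDP or Pam3CSK4. The 4 pretreated conditions were MDP before MDP, MDP before Pam3CSK4, Pam3CSK4 before MDP and Pam3CSK4 before Pam3CSK4. Strain, sex and age of the mice are not given in the sources used here, and no condition here had a pretreatment and then no ligand, so what was left over from the 24 h exposure and what the 3 h exposure added cannot be told apart. Every difference is between 2 single arrays, with no replicate, no p-value and no spread between cultures, and having 1 array a condition is what limits the precision. Levels are log2 RMA expression (a normalized probe set intensity), differences are log2 differences, and a fold is 2 to the power of a difference.

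Type I interferons are secreted when cells sense microbes. They bind a receptor made of Ifnar1 and Ifnar2, and the kinases Jak1 and Tyk2 then activate transcription factors such as Stat2, which enters the nucleus with Irf9 and binds interferon-stimulated response elements in promoters. The genes switched on in this way encode sensors of foreign nucleic acid, enzymes that degrade or edit it, proteins that block viral entry, replication and release, and feedback regulators. Toll-like receptor and NOD ligands also switch on primary response genes through NF-kB without interferon.

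The element that the interferon-activated factor binds was looked for in the promoters. RefSeq promoter windows (assembly GRCm38.p6, 250 bases before to 50 bases after the annotated start) were found for 35 of the 46 measured genes. The core of the interferon-stimulated response element was searched as GAAA, any 2 bases and GAAA again on both strands, overlapping matches included, and stood in at least 1 window of 15 of the 35 genes (42.9%), against 3.99% of all 27025 genes with a window and 3.44% of the 32851 windows. The gamma-activated site, searched as TTCNNNGAA, was in windows of 7 of the 35 genes (9.55% of all genes), and GGGA, any 2 bases and TTCC, a form of the NF-kB site, in those of 3, namely Ifit2, Isg20 and Ifi209 (1.63% of all genes). The stretches that follow, which end before the annotated gene begins, are shown because they carry the element in 2 genes that stood 2-fold or more over unstimulated with a first ligand (Ifit1 and Rsad2) and in 3 that stood near the unstimulated level until a pretreatment had been given (Oas3, Bst2 and Ddx60). Capitals mark matches to the response element core (GAAA on both sides of the gap, or TTTC where it lies on the opposite strand), 5′ to 3′ on the strand of the gene.
Ifit1 (chr19:34640729-34640888, plus strand): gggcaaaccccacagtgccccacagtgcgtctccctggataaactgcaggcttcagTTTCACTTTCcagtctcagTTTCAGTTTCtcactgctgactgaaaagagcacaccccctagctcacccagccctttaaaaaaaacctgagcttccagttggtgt
Rsad2 (chr12:26456453-26456612, minus strand): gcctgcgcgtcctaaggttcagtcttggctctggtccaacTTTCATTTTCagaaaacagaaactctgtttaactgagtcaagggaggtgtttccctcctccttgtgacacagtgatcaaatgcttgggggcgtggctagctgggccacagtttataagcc
Oas3 (chr5:120777685-120777819, minus strand): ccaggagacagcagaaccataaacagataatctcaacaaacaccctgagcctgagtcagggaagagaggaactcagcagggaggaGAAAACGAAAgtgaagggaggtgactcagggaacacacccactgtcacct
Bst2 (chr8:71537473-71537632, minus strand): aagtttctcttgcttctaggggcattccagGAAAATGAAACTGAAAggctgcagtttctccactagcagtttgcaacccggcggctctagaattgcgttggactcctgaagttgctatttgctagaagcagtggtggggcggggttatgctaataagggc
Ddx60 (chr8:61927927-61928072, plus strand): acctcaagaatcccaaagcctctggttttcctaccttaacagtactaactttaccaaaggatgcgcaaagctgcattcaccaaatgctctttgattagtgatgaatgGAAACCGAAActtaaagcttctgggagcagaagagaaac
Ifit1 has 2 separate matches, Bst2 2 overlapping ones and the others 1 each in these stretches. The element stood in 3 of 7 windowed genes that were 2-fold or more higher with a first ligand and in 7 of 14 that lay within 0.5 of unstimulated with both. A match is a description of letters and not a bound site.

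All 46 genes lay above the median of their array on all 7 arrays. The 9 measured macrophage markers, among them Adgre1, Csf1r and Lyz2, were above it on all arrays as well, and the log2 of their summed signal ran from 16.61 to 16.80. That sum is set by the brightest markers, and single ones moved: on the arrays of Pam3CSK4 before MDP and before Pam3CSK4, Itgam stood 1.27 and 1.27, Fcgr1 1.04 and 1.13 and Adgre1 0.94 and 0.92 over unstimulated, and Mertk was at -1.18 with a first MDP, -2.29 with a first Pam3CSK4 and -1.79 in MDP before Pam3CSK4. The same sum for other cells was, for plasmacytoid dendritic cell markers from 10.18 to 10.36 (Ccr9 and Pacsin1 below the array median throughout), for dendritic cell markers from 8.85 to 9.32 (3 of 6 below the median throughout), T and NK cell from 7.20 to 7.40 (4 of 5 below), B cell from 12.81 to 13.02 (1 of 6 below) and neutrophil from 10.58 to 11.37 (2 of 6 below). Within these lists too single genes differed from unstimulated. On the Pam3CSK4-pretreated arrays (MDP last, then Pam3CSK4 last) Cox6a2 was at 1.44 and 1.46, Tcf4 at -0.79 and -0.78, Ltf at -0.69 and -1.16 and Cd79b at 0.57 and 0.39. Ighm was at -2.01 and -1.96 after MDP and -2.63 and -2.77 after Pam3CSK4, the same order of pretreatments as in the antiviral genes with the sign turned, and Camp was at 1.08 in MDP before Pam3CSK4. Stromal markers, with 4 of 6 below the median on all arrays, summed to 8.06 to 8.16 on 5 arrays and to 9.06 and 8.86 on the Pam3CSK4-pretreated arrays, where Dcn was higher (6.47 unstimulated, 8.34 and 8.03 there). The part of all these markers in the results was not tested, and in cultures read as bulk RNA a change in the share of a cell type and a change per cell cannot be told apart. On the array of Pam3CSK4 before Pam3CSK4 the controls for 18S ribosomal RNA stood 1.70 (median of 3) over unstimulated. On that of Pam3CSK4 before MDP they stood at 0.48. The median difference of the 46 genes from unstimulated was 1.97 and 1.99 on these arrays. What the 18S difference means for the gene values was not tested.

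The arrays stood in the order naive, MDP-pretreated and Pam3CSK4-pretreated for most of the group. The median difference from unstimulated over the 46 genes was 0.43 with MDP and 0.64 with Pam3CSK4 in naive cells, 0.98 for MDP before MDP, 1.63 for MDP before Pam3CSK4, 1.99 for Pam3CSK4 before MDP and 1.97 for Pam3CSK4 before Pam3CSK4, while the median over all genes was -0.01 to 0.01. The unstimulated array was the lowest of the 7 for 40 of the 46 genes (17.5% of all genes), and an array pretreated with Pam3CSK4 was the highest for 44 (32.6% of all genes), with Pam3CSK4 last in 24 and MDP last in 20. For 34 genes all 4 pretreated arrays were above all 3 naive arrays (3.94% of all genes). For 34 the 3 naive arrays, the 2 MDP-pretreated arrays and the 2 Pam3CSK4-pretreated arrays stood in that order with no overlap, an order that 2.68% of all genes showed. Both Pam3CSK4-pretreated arrays were above the other 5 for 41 genes, against 15.8% of all genes.

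**Figure D1:**
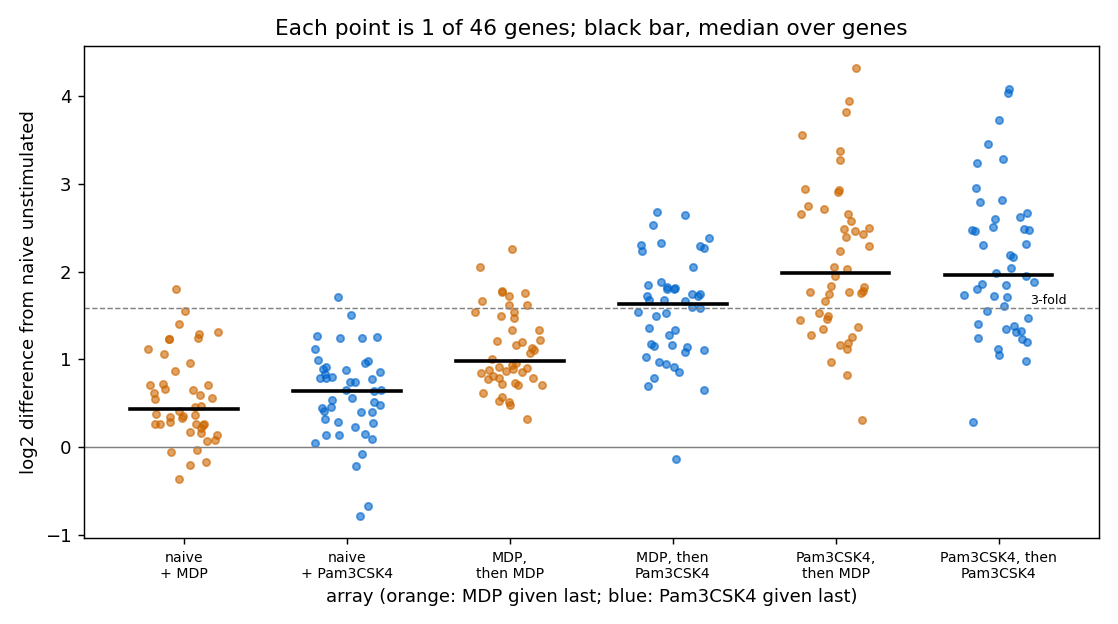
Log2 difference from the naive unstimulated array (vertical axis) for each of 46 antiviral genes (points) on the other 6 arrays (horizontal axis, orange where MDP and blue where Pam3CSK4 was given last), with the median over genes as a black bar and 3-fold as a dashed line. The medians stand at 0.43 and 0.64 in naive cells, 0.98 and 1.63 after MDP and 1.99 and 1.97 after Pam3CSK4.

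The values after a first exposure were uneven across the group. With MDP, 10 of the 46 genes were at least 2-fold over unstimulated (0.583% of all genes), and Ifit1 alone was at least 3-fold (3.50-fold, against 0.22% of all genes). Of these 10, 4 had several probe sets with signal above the array median, and Parp14 and Tor3a were not 2-fold higher on all of theirs. With Pam3CSK4, 7 were at least 2-fold higher (2.27% of all genes), and Parp14 alone was at least 3-fold (3.28-fold, against 1.28% of all genes), which it was not with the mean of its 2 probe sets. None was 2-fold lower with either ligand, where 0.17% and 1.95% of all genes were. Together 12 genes were 2-fold higher with at least 1 ligand, namely the 3 Ifit genes, Oasl1, Mx1, Mx2, Rsad2, Cmpk2, Parp9, Parp14, Dtx3l and Tor3a. Another 16 lay within 0.5 of unstimulated with both, a grouping made after the values were seen. These were Oas1a, Oas2, Oas3, Isg20, Dhx58, Ddx60, Ifi35, Bst2, Eif2ak2, Adar, Ifi213, Pml, Sp100, Epsti1, Lgals9 and Ms4a4c, and the remaining 18 lay between. Both comparisons rest on the same unstimulated array.

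Over unstimulated, 23 of the 46 genes were at least 2-fold higher in MDP before MDP (0.39% of all genes) and 9 at least 3-fold (0.126%). In MDP before Pam3CSK4 it was 38 (3.03%) and 24 (1.79%), in Pam3CSK4 before MDP 43 (2.78%) and 32 (1.42%), and in Pam3CSK4 before Pam3CSK4 44 (2.66%) and 32 (1.37%). None was 2-fold lower on these arrays, where 0.0385%, 1.8%, 2.59% and 2.29% of all genes were. Of the 16 genes near the unstimulated level with a first ligand, 6 were at least 2-fold over it in MDP before MDP, 10 in MDP before Pam3CSK4, and 8 were at least 3-fold over it on both Pam3CSK4-pretreated arrays. Of the 12 that were 2-fold higher with a first ligand, all 12 were at least 3-fold over unstimulated on both Pam3CSK4-pretreated arrays. Their medians over unstimulated were 1.24 with MDP and 1.18 with Pam3CSK4 in naive cells, 0.99 and 1.81 after MDP, and 2.58 and 2.34 after Pam3CSK4, and those of the 16 were 0.16 and 0.28, 0.87 and 1.09, and 1.62 and 1.63. All of these differences share the unstimulated array, which was also used to sort the 12 and the 16. Their naive medians follow from that sorting. All genes were not sorted in the same way, and the difference between the 12 and the 16 was not tested.

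**Figure D2:**
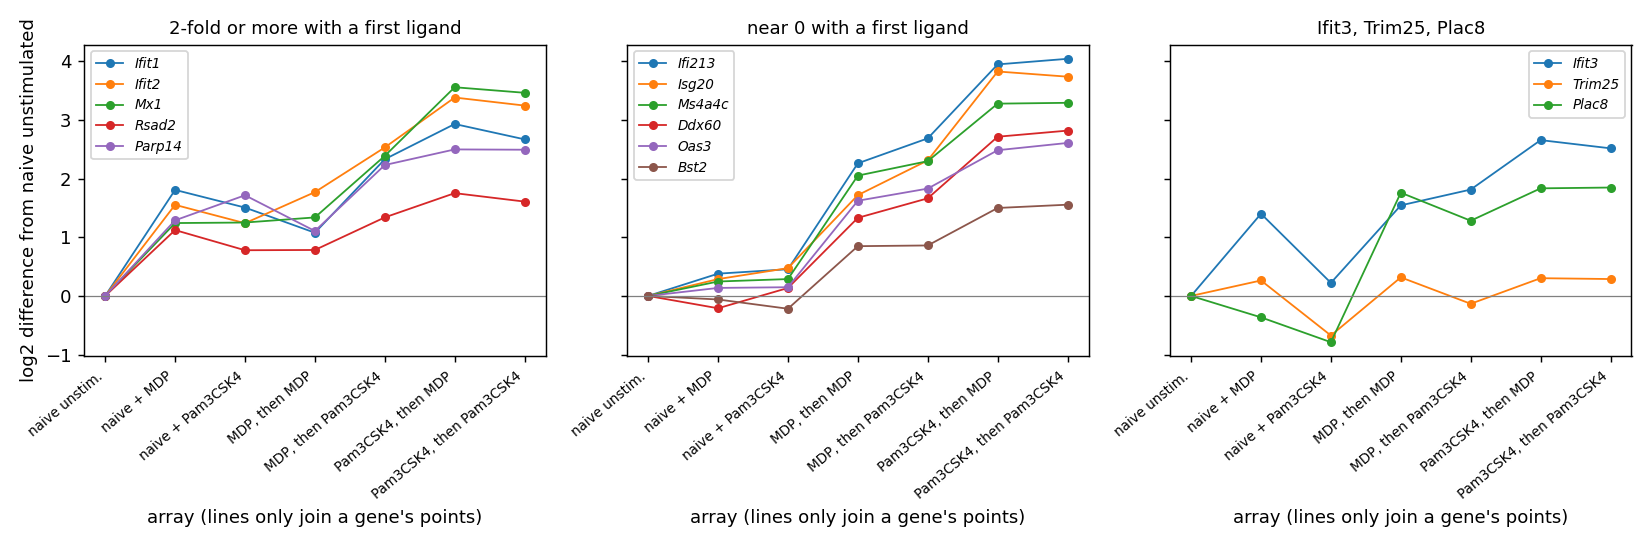
Log2 difference from the naive unstimulated array (vertical axis) over the 7 arrays (horizontal axis) for 5 genes that were 2-fold or more higher with a first ligand, 6 that lay near 0 with a first ligand, and Ifit3, Trim25 and Plac8, whose values with the ligands went apart or below 0. Lines only join the points of a gene, and the middle panel stays within 0.5 of 0 until the first pretreated array.

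Among the sensors of foreign nucleic acid, 0 of 10 were 2-fold higher with a first MDP or Pam3CSK4 (0.583% and 2.27% of all genes, so that 0 of 10 is near the background), and 9 of 10 were on each Pam3CSK4-pretreated array (2.78% of all genes with MDP last and 2.66% with Pam3CSK4 last). Ifi213, a member of the PYHIN family of DNA-binding proteins, had a level of 5.84 without ligand, 6.22 with MDP and 6.30 with Pam3CSK4 in naive cells, 8.10 and 8.53 after MDP, and 9.79 and 9.88 after Pam3CSK4 (the ligand given last being MDP and then Pam3CSK4 in each pair). The naive values lay together and every pretreated value stood above them, with Pam3CSK4 before Pam3CSK4 16.5-fold over unstimulated. Ddx60, a helicase linked to RNA sensing, had levels of 7.34 without ligand, 7.13 with MDP and 7.47 with Pam3CSK4 in naive cells, 8.67 and 9.00 after MDP, and 10.05 and 10.15 after Pam3CSK4. It was 7.59-fold higher in MDP after Pam3CSK4 than with a first MDP, and 2.91-fold higher in MDP after MDP. Ifi204, another PYHIN gene, had the smallest range of the sensors, with 9.32 without ligand, 9.58 with MDP and 9.85 with Pam3CSK4 in naive cells, 9.94 and 10.11 after MDP, and 10.15 and 10.30 after Pam3CSK4.

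The cytosolic RNA helicases Ddx58 (RIG-I) and Ifih1 (MDA5), which signal through Mavs, had similar values. Ddx58 stood 0.62 and 0.64 over unstimulated with a first MDP and Pam3CSK4, 1.17 and 1.68 after MDP, and 2.23 and 2.31 after Pam3CSK4. Ifih1 stood at 0.66 and 0.99, 1.20 and 1.80, and 2.29 and 2.32. The related regulator Dhx58 (LGP2) was nearer to unstimulated in naive cells, at -0.17 and 0.09 with a first ligand and 1.44 and 1.40 after Pam3CSK4. Zbp1, which senses Z-form nucleic acid, stood 2.46 over unstimulated in Pam3CSK4 before MDP, and the PYHIN gene Ifi209 2.43. Eif2ak2, the kinase PKR that stops translation, was 3.40-fold over it, and Adar, which edits double-stranded RNA, 2.24-fold. Ifi204, Ifi209 and Ifi213 lie near each other on chromosome 1 and are related in sequence, as are the Oas, Ifit and Mx genes, and cross-reading by their probe sets was not tested.

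The Ifit genes, which encode proteins that bind viral RNA and block its translation, were all 3 at least 2-fold over unstimulated with a first MDP (0.583% of all genes). Ifit1 had levels of 10.70 without ligand, 12.50 with MDP and 12.20 with Pam3CSK4 in naive cells, 11.77 and 13.03 after MDP, and 13.63 and 13.36 after Pam3CSK4. A second exposure to MDP left it 1.66-fold lower than a first, the furthest below of the 46 genes in that comparison, but still 2.11-fold over unstimulated. Ifit2 had 10.59 without ligand, 12.15 with MDP and 11.83 with Pam3CSK4 in naive cells, 12.36 and 13.12 after MDP, and 13.97 and 13.84 after Pam3CSK4, and did not show that dip. Ifit3 had 10.81 without ligand, 12.21 with MDP and 11.03 with Pam3CSK4 in naive cells, 12.35 and 12.62 after MDP, and 13.46 and 13.32 after Pam3CSK4. In naive cells it was 2.64-fold over unstimulated with MDP and 1.17-fold with Pam3CSK4. It was the only gene of the 46 with a 2-fold difference between the ligands there (-1.18, Pam3CSK4 minus MDP). Of all genes 0.709% were 2-fold lower and 1.4% 2-fold higher in that comparison, so that 1 of 46 is near the background. After a pretreatment the difference between the ligands for Ifit3 was smaller, at 0.27 after MDP and -0.14 after Pam3CSK4. Each of the 3 genes was read by a single probe set.

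The oligoadenylate synthetases make the messenger that activates RNase L when they meet double-stranded RNA, and the Oasl proteins are their relatives. Oasl1, which has been linked to control of Irf7 translation, had 8.07 without ligand, 9.30 with MDP and 9.03 with Pam3CSK4 in naive cells, 9.85 and 10.72 after MDP, and 12.40 and 12.16 after Pam3CSK4. In Pam3CSK4 before MDP it stood 4.32 over unstimulated, the highest of the 46, and 5.83-fold over MDP before MDP. Oas3 had 9.22 without ligand, 9.36 with MDP and 9.37 with Pam3CSK4 in naive cells, 10.84 and 11.05 after MDP, and 11.71 and 11.83 after Pam3CSK4, flat in naive cells and at least 3.08-fold over unstimulated on all pretreated arrays. Oas2, with the smallest range, had 9.95 without ligand, 10.11 with MDP and 10.36 with Pam3CSK4 in naive cells, 10.83 and 10.98 after MDP, and 11.14 and 11.26 after Pam3CSK4. Oas1a was 2.60-fold and Oasl2 4.13-fold over unstimulated in Pam3CSK4 before Pam3CSK4. Oas2 and Oas3 lie side by side on chromosome 5, as do Oasl1 and Oasl2, and within both pairs the ranges over the arrays differed, 1.31 against 2.61 and 4.32 against 2.05.

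Among GTPases, enzymes and other proteins that block steps of viral growth, 4 of 7 were 2-fold higher with a first MDP (0.583% of all genes) and 1 with a first Pam3CSK4 (2.27%), and 7 of 7 on both Pam3CSK4-pretreated arrays (2.78% with MDP last and 2.66% with Pam3CSK4 last). Isg20, an exonuclease that degrades RNA, had 7.74 without ligand, 8.03 with MDP and 8.21 with Pam3CSK4 in naive cells, 9.46 and 10.05 after MDP, and 11.57 and 11.48 after Pam3CSK4. It was 14.2-fold over unstimulated in Pam3CSK4 before MDP and 0.29 and 0.47 over it, in log2, with the first ligands. Mx1, a GTPase that traps viral nucleocapsids, had 8.52 without ligand, 9.76 with MDP and 9.77 with Pam3CSK4 in naive cells, 9.85 and 10.90 after MDP, and 12.07 and 11.98 after Pam3CSK4. It differed by 0.01 between the ligands in naive cells and by 0.10 between a repeated and a first MDP. Samd9l, a growth and translation inhibitor, had the smallest range of the 7, with 10.51 without ligand, 11.07 with MDP and 11.25 with Pam3CSK4 in naive cells, 11.41 and 11.87 after MDP, and 12.18 and 12.24 after Pam3CSK4.

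Rsad2 (viperin) and Cmpk2, a nucleotide kinase, are adjacent on chromosome 12 and kept the same order of arrays in naive and MDP-pretreated cells. Rsad2 stood 1.12 over unstimulated with a first MDP, 0.78 with a first Pam3CSK4, 0.78 in MDP before MDP and 1.75 in Pam3CSK4 before MDP. Cmpk2 stood at 1.32, 0.89, 0.91 and 2.40. With the mean of their probe sets the last values were 2.35 for Rsad2 and 2.99 for Cmpk2, so the size of both depends on the probe set. Mx2 differed by -0.71 (Pam3CSK4 minus MDP last) in Pam3CSK4-pretreated cells, the widest gap of the 46 genes in that comparison. Bst2 (tetherin), which holds budding virus at the cell surface, was at -0.06 and -0.22 with a first ligand and 2.94-fold over unstimulated in Pam3CSK4 before Pam3CSK4.

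Of the genes of ISG15 conjugation, Herc6, the main ISG15 ligase of the mouse, had 8.49 without ligand, 8.82 with MDP and 9.47 with Pam3CSK4 in naive cells, 10.03 and 10.76 after MDP, and 11.44 and 11.45 after Pam3CSK4. In naive cells it was 0.65 higher with Pam3CSK4 than with MDP, the highest such difference of the 46. Usp18, which removes ISG15 from proteins and damps signalling at the interferon receptor, had 10.81 without ligand, 11.76 with MDP and 11.46 with Pam3CSK4 in naive cells, 12.03 and 12.55 after MDP, and 13.39 and 13.29 after Pam3CSK4. Trim25, a ubiquitin ligase that activates RIG-I, went against the group, with 11.19 without ligand, 11.46 with MDP and 10.52 with Pam3CSK4 in naive cells, 11.51 and 11.06 after MDP, and 11.50 and 11.48 after Pam3CSK4. By this probe set it was 1.60-fold lower with a first Pam3CSK4, and it was the only gene of the 46 below unstimulated in MDP before Pam3CSK4. Its probe sets disagreed, since the next brightest read 11.03 unstimulated and 10.37 with Pam3CSK4 and the third read 10.47 and 10.91.

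Parp9, Dtx3l and Parp14 lie together on chromosome 16 and all 3 were at least 2-fold over unstimulated with a first Pam3CSK4 (2.27% of all genes). Parp9 and Dtx3l form a complex that adds ADP-ribose and ubiquitin to proteins, and Parp14 is an ADP-ribosyltransferase. Parp14 had 9.94 without ligand, 11.23 with MDP and 11.66 with Pam3CSK4 in naive cells, 11.05 and 12.17 after MDP, and 12.44 and 12.43 after Pam3CSK4. Dtx3l had 9.75 without ligand, 10.62 with MDP and 11.02 with Pam3CSK4 in naive cells, 10.66 and 11.56 after MDP, and 11.52 and 11.64 after Pam3CSK4, and Parp9 had 10.22 without ligand, 10.93 with MDP and 11.33 with Pam3CSK4 in naive cells, 10.92 and 11.76 after MDP, and 12.00 and 11.95 after Pam3CSK4. In these genes MDP before MDP differed from a first MDP by -0.18 to 0.04, and Pam3CSK4 before Pam3CSK4 was less than 2-fold above a first Pam3CSK4 in all of them (0.78, 0.62 and 0.62).

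Stat2, the subunit of the interferon-activated transcription factor that is particular to types I and III interferon, had 7.56 without ligand, 8.11 with MDP and 8.39 with Pam3CSK4 in naive cells, 8.69 and 9.29 after MDP, and 10.31 and 10.35 after Pam3CSK4. It stood 6.92-fold over unstimulated in Pam3CSK4 before Pam3CSK4. Pml, Sp100 and Daxx are parts of nuclear bodies that restrict viral genomes. Pml had 8.16 without ligand, 8.43 with MDP and 8.30 with Pam3CSK4 in naive cells, 8.95 and 9.31 after MDP, and 9.99 and 10.03 after Pam3CSK4. Daxx had 10.01 without ligand, 10.73 with MDP and 10.80 with Pam3CSK4 in naive cells, 10.53 and 11.54 after MDP, and 11.55 and 11.35 after Pam3CSK4, and so stood as high in MDP before Pam3CSK4 as in Pam3CSK4 before MDP. Sp100 was 3.34-fold over unstimulated in Pam3CSK4 before MDP. Trim21, a cytosolic antibody receptor, had 9.82 without ligand, 10.47 with MDP and 10.62 with Pam3CSK4 in naive cells, 10.34 and 11.32 after MDP, and 11.28 and 10.94 after Pam3CSK4, and was the gene whose highest array was MDP before Pam3CSK4. Trim30a, a TRIM protein of the mouse, had 11.82 without ligand, 12.16 with MDP and 12.69 with Pam3CSK4 in naive cells, 12.62 and 12.95 after MDP, and 12.94 and 13.05 after Pam3CSK4, with less than a 2-fold difference between any pretreated and the matching naive array.

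Of the 9 remaining genes, 1 was 2-fold over unstimulated with each first ligand (0.583% of all genes with MDP and 2.27% with Pam3CSK4) and 9 were in Pam3CSK4 before Pam3CSK4 (2.66%). Ms4a4c, a membrane-spanning protein of leukocytes, had 9.71 without ligand, 9.96 with MDP and 10.00 with Pam3CSK4 in naive cells, 11.76 and 12.01 after MDP, and 12.99 and 13.00 after Pam3CSK4. Both of its probe sets have a suffix that marks them as less specific, and cross-reading by them was not tested. Phf11d, a PHD finger protein, had 9.16 without ligand, 9.62 with MDP and 9.91 with Pam3CSK4 in naive cells, 10.83 and 11.22 after MDP, and 11.82 and 11.79 after Pam3CSK4. Lgals9 (galectin-9) had the smallest range of these, with 12.18 without ligand, 12.25 with MDP and 12.22 with Pam3CSK4 in naive cells, 12.76 and 12.88 after MDP, and 13.15 and 13.23 after Pam3CSK4. Plac8, a cysteine-rich protein of myeloid cells, had 8.37 without ligand, 8.00 with MDP and 7.58 with Pam3CSK4 in naive cells, 10.13 and 9.65 after MDP, and 10.20 and 10.21 after Pam3CSK4. It was below unstimulated with both first ligands, and in MDP before MDP it was 4.36-fold over a first MDP, the largest difference of the 46 in that comparison. The array of a first MDP enters both differences, with opposite sign. Tor3a, an ATPase of the torsin family, was 2.08-fold and 2.37-fold over unstimulated with the first ligands. The XIAP-binding protein gene Xaf1 stood 3.87-fold over it in Pam3CSK4 before Pam3CSK4, Epsti1 2.77-fold, the receptor chaperone Rtp4 2.50-fold and Ifi35 2.37-fold. For Xaf1 a dim further probe set near the array median read 5.44 unstimulated and 5.35 on that array, and the mean of both gave 0.93.

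**Figure D3:**
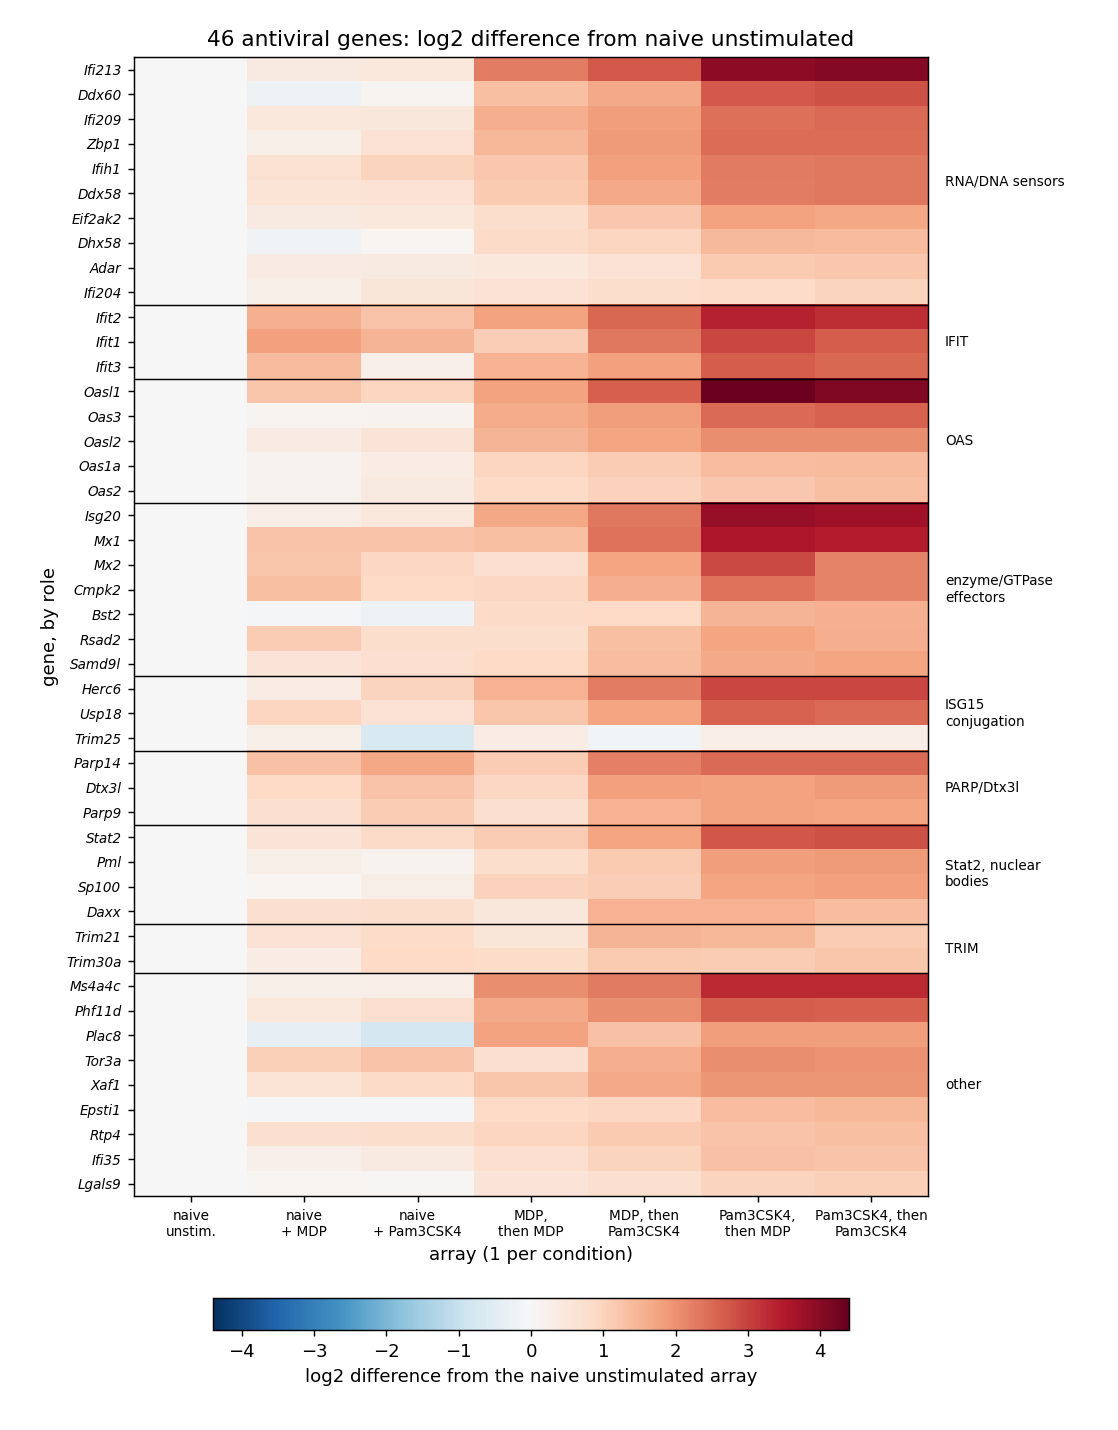
Log2 difference from the naive unstimulated array (colour, red higher and blue lower) for 46 antiviral genes (rows, by role and within a role by range) on 7 arrays (columns). Colour deepens from the naive to the MDP-pretreated to the Pam3CSK4-pretreated columns in most rows, up to 4.32 for Oasl1, with Trim25 between -0.67 and 0.32.

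The study's question for pretreated cells was whether genes stood 2-fold lower than with a first exposure. In none of the 4 comparisons was any of the 46 genes 2-fold lower, where 0.291% of all genes were in MDP before MDP, 1.71% in Pam3CSK4 before MDP, 2.3% in Pam3CSK4 before Pam3CSK4 and 0.022% in MDP before Pam3CSK4. With shares this small, 0 of 46 is near the background. Few genes had an induction to lose, since 10 were 2-fold over unstimulated with a first MDP and 7 with a first Pam3CSK4. At 3-fold it was Ifit1 alone with MDP and Parp14 alone with Pam3CSK4. In MDP before MDP, 12 genes were at least 2-fold above a first MDP (0.385% of all genes), 37 of 46 lay above it (43.2% of all genes), 3 stood 3-fold or more over it (0.044%), and the median difference was 0.52. Plac8 (2.12), Ifi213 (1.88), Ms4a4c (1.80), Ddx60 (1.54) and Oas3 (1.49) stood highest. Ifit1 (-0.73), Mx2 (-0.51) and Cmpk2 (-0.40) stood lowest, and all 3 were among the 10 at least 2-fold over unstimulated with a first MDP. Both differences use the array of a first MDP, with opposite sign. A high value on it raises the one and lowers the other, so this overlap is no separate result. The array of MDP before MDP had few genes over unstimulated at all, 71 at 2-fold, and 23 of those 71 (32.4%), and so 23 of the 46, were of this group.

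MDP before Pam3CSK4 lay above a first Pam3CSK4 for all 46 genes (47.9% of all genes), with a median difference of 0.82, and 19 were at least 2-fold higher (0.297% of all genes), 7 of them at least 3-fold (0.0879%). The 54 genes called in that comparison thus included 19 of this group, or 35.2% of them and 41.3% of the 46. Ifi213 (2.23), Plac8 (2.07), Ms4a4c (2.01), Isg20 (1.84) and Oasl1 (1.69) stood highest, and Adar (0.25), Ifi204 (0.25) and Trim30a (0.26) lowest.

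The differences were larger after Pam3CSK4. In Pam3CSK4 before MDP, 35 genes were at least 2-fold over a first MDP (2.14% of all genes), 21 at least 3-fold (0.934% of all genes), and all 46 lay above it (44.2% of all genes), with a median of 1.48. Ifi213 was 11.8-fold over it, Isg20 11.6-fold, Oasl1 8.53-fold, Ms4a4c 8.17-fold and Ddx60 7.59-fold, and Trim25 (0.04), Rtp4 (0.56) and Ifi204 (0.57) were lowest. In Pam3CSK4 before Pam3CSK4, 31 genes were at least 2-fold over a first Pam3CSK4 (2.41% of all genes), 19 at least 3-fold (0.846%), all 46 lay above it (51.6% of all genes), and the median was 1.32. There Ifi213 (3.59), Isg20 (3.26), Oasl1 (3.13), Ms4a4c (3.00) and Ddx60 (2.68) stood highest, and Trim21 (0.33), Trim30a (0.36) and Ifi204 (0.45) stood lowest. These 2 comparisons share no array, but each shares its naive array with 1 of the comparisons of MDP-pretreated cells above.

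Among the 35 genes at least 2-fold over a first MDP in Pam3CSK4 before MDP, more than 1 probe set with signal over the median was present for 17, and every one of them was past 2-fold for 13. The others were Ddx58, Dhx58, Xaf1 and Epsti1. In Pam3CSK4 before Pam3CSK4 over a first Pam3CSK4 it was 10 of 15, with Eif2ak2 added to those 4. For the 12 genes called in MDP before MDP over a first MDP it was 4 of 7, and Herc6, Dhx58 and Ifi209 were the others. For the 19 called in MDP before Pam3CSK4 over a first Pam3CSK4 it was 5 of 8, and Ddx58, Ddx60 and Pml were the others.

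Arrays that differed only in the ligand given last were compared next. After MDP, 44 of 46 genes were higher with Pam3CSK4 than with MDP (44.7% of all genes), with a median difference of 0.40, and none was 3-fold higher (1.3% of all genes). The 5 at least 2-fold higher (2.41% of all genes) were Ifit1 (1.25), Parp14 (1.12), Mx1 (1.05), Daxx (1.01) and Mx2 (1.00). Of these 5 only Parp14 had several probe sets with signal above the array median, and its second stood at 0.79, short of 2-fold. Plac8 (-0.48) and Trim25 (-0.45) were the 2 that stood lower. After Pam3CSK4, 24 genes were higher with Pam3CSK4 (49.9% of all genes) and 22 with MDP, the median was 0.01, and the values ran from -0.71 (Mx2) to 0.16 (Ifi204), with 0 of 46 past 2-fold (0% of all genes higher and 0.0055% lower). In naive cells 32 genes were higher with Pam3CSK4 (37.6% of all genes) and 14 with MDP, with a median of 0.08. The 3 differences share no array, and the difference between them was not tested.

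**Figure D4:**
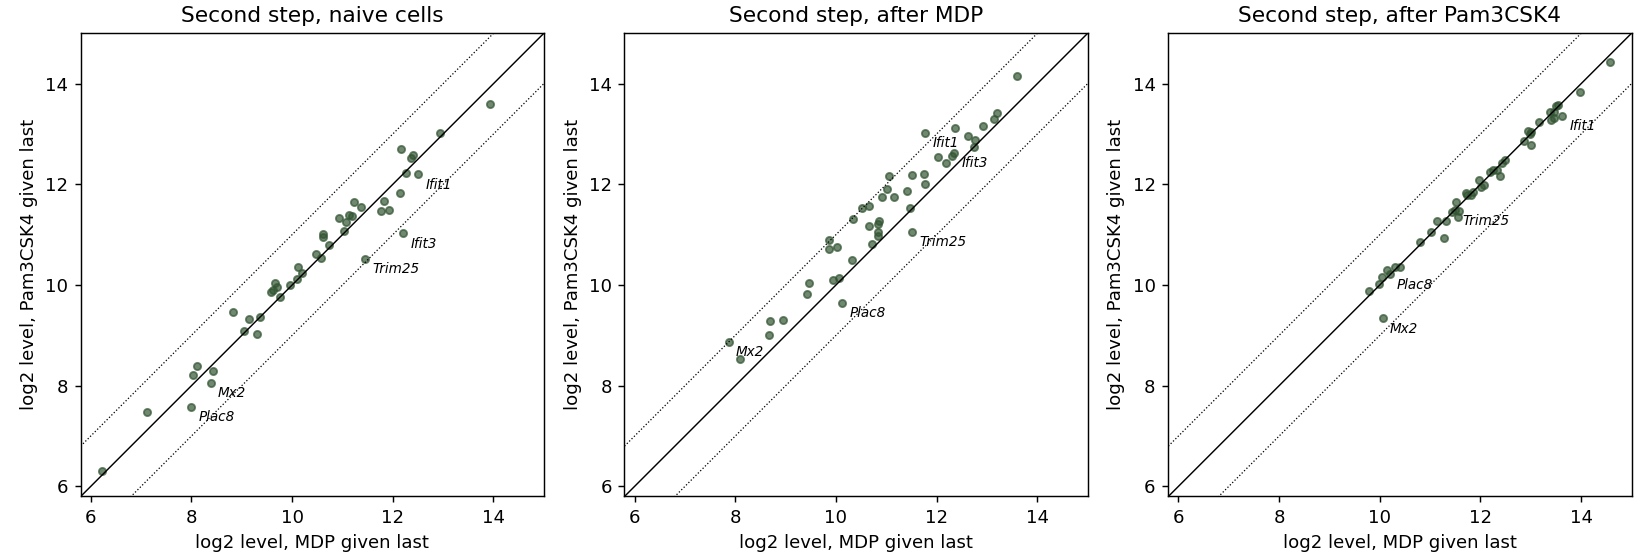
Log2 level with Pam3CSK4 given last (vertical axis) against that with MDP given last (horizontal axis) for 46 antiviral genes (points) in naive, MDP-pretreated and Pam3CSK4-pretreated cells, with the line of equality and dotted lines at 2-fold. Points scatter on both sides in naive cells with Ifit3 at -1.18, lie mostly above the line after MDP (44 of 46) and lie nearer to it after Pam3CSK4, where Mx2 (-0.71), Trim21 (-0.33), Ifit1 (-0.26) and Oasl1 (-0.24) fall furthest below.

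Set against each other under the same last ligand, Pam3CSK4 pretreatment gave higher levels than MDP pretreatment. With MDP last, 45 of 46 genes were higher (51.9% of all genes), 21 of them at least 2-fold (1.91% of all genes) and 8 at least 3-fold (0.792%), with a median of 0.98. Oasl1 (2.54), Mx1 (2.22), Mx2 (2.19), Isg20 (2.11) and Ifit1 (1.85) stood highest. With Pam3CSK4 last, 44 were higher (55.3% of all genes), 6 of them at least 2-fold (1.34% of all genes) and none 3-fold (0.357%), with a median of 0.54. Trim21 (-0.37) and Daxx (-0.18) were the 2 below.

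The genes that make, pass on or damp the interferon signal, and partner factors, differed in which of these steps they shared. Of 25 listed, 21 had a single-symbol probe set, and the other 4 are not analysed here. Over unstimulated, 3 of 21 were at least 2-fold higher with a first MDP (0.583% of all genes), 5 with a first Pam3CSK4 (2.27%), 1 in MDP before MDP (0.39%), 5 in MDP before Pam3CSK4 (3.03%), 6 in Pam3CSK4 before MDP (2.78%) and 7 in Pam3CSK4 before Pam3CSK4 (2.66%). None was 2-fold lower, where 0.0385% to 2.59% of all genes were. The 3 with a first MDP were Socs1 (1.10), Socs3 (2.82) and Irf1 (1.43). All of them belong to the 6 brakes and partner factors in the list, and not to the genes of interferon production, receptors and signalling. Ifnb1, the interferon beta gene, had 5.31 without ligand, 5.59 with MDP and 5.70 with Pam3CSK4 in naive cells, 5.10 and 6.15 after MDP, and 7.27 and 6.58 after Pam3CSK4. It lay below the array median on the unstimulated array and on that of MDP before MDP, and its highest values were those of the Pam3CSK4-pretreated arrays.

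Irf7, the factor that amplifies interferon production, had 10.73 without ligand, 10.79 with MDP and 10.81 with Pam3CSK4 in naive cells, 12.46 and 12.54 after MDP, and 13.35 and 13.30 after Pam3CSK4. It was flat in naive cells and at least 1.73 over unstimulated on every pretreated array. Irf9 had 9.53 without ligand, 10.01 with MDP and 10.05 with Pam3CSK4 in naive cells, 10.15 and 10.25 after MDP, and 10.32 and 10.30 after Pam3CSK4, a small and even step. The receptor gene Ifnar1 had 10.94 without ligand, 11.39 with MDP and 11.96 with Pam3CSK4 in naive cells, 10.89 and 11.75 after MDP, and 11.27 and 11.31 after Pam3CSK4, higher with Pam3CSK4 last than with MDP last in naive and MDP-pretreated cells, and Ifnar2 stood 0.60 over unstimulated in Pam3CSK4 before MDP. The kinase genes Jak1 and Tyk2 lay 0.55 and 0.43 over it with a first Pam3CSK4 and 0.03 and 0.03 in Pam3CSK4 before MDP.

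Irf1, a factor that binds the same kind of element, had 9.74 without ligand, 11.18 with MDP and 11.30 with Pam3CSK4 in naive cells, 10.14 and 11.90 after MDP, and 11.60 and 11.23 after Pam3CSK4, higher with each first ligand and lower in MDP before MDP than with a first MDP (-1.04). Ikbke, a kinase that activates Irf3 and Irf7, had 10.18 without ligand, 10.82 with MDP and 11.82 with Pam3CSK4 in naive cells, 10.58 and 11.88 after MDP, and 11.70 and 11.77 after Pam3CSK4. Socs1, a brake on Jak kinases, had 6.73 without ligand, 7.83 with MDP and 8.21 with Pam3CSK4 in naive cells, 7.26 and 8.80 after MDP, and 10.00 and 9.30 after Pam3CSK4, with its highest value in Pam3CSK4 before MDP. Socs3 stood 2.82 and 6.80 over unstimulated with the first ligands and 0.58 in MDP before MDP. Mavs, Tbk1, Irf3, Irf5, Irf2 and Irf8 differed from unstimulated by 0.38 (Tbk1, in Pam3CSK4 before Pam3CSK4) or less on all arrays.

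**Figure D5:**
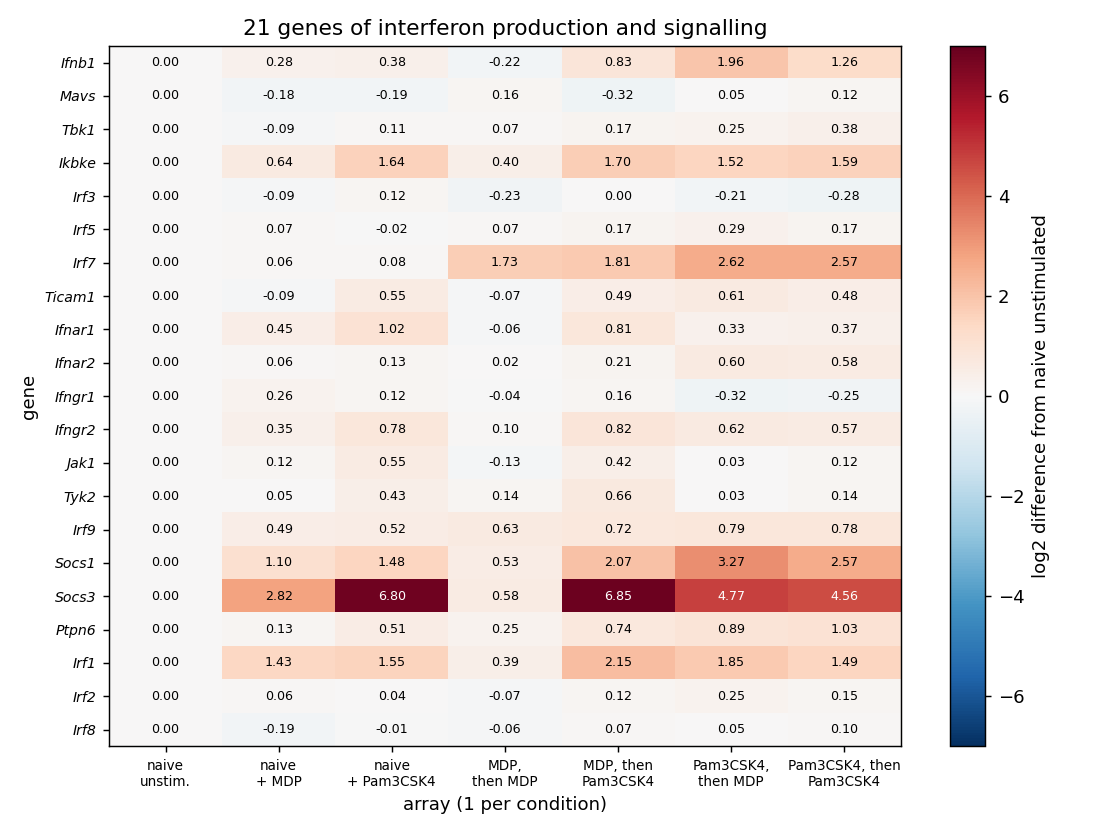
Log2 difference from the naive unstimulated array (colour and printed value) for 21 genes of interferon production, signalling, and its brakes and partner factors (rows) on 7 arrays (columns). Irf7 is at 0.06 and 0.08 in naive cells and at 2.62 in Pam3CSK4 before MDP, Ifnb1 reaches 1.96 there, and Socs3 stands at 6.80 with a first Pam3CSK4 and 6.85 in MDP before Pam3CSK4.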

How the data were processed

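RNA of 7 macrophage cultures was hybridised to 1 Affymetrix array each. The deposited values are log2 expression per probe set, made by the authors with RMA (affy), as per the submitters' processing notes; versions, probe set definitions and the arrays normalized together are not given in the sources used here. All labels carry the replicate number 2. The 45101 probe sets ran from 2.95 to 15.1, and nothing was renormalized. Each array had 1 colour, so higher means more signal; the log2 scale rests on those notes and the range, genes were not centred, and scanner values were not used. Array medians ran from 5.48 to 5.55.

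Symbols came from the platform table. Each gene was read from its single-symbol probe set, the brightest on average where it had several. Groups came from the labels, and 15 differences between single arrays were taken with no test. Calls use 3-fold over unstimulated and 2-fold elsewhere, after the study's design, and 2-fold over unstimulated is given as well. The named genes were, in each role, those with the 2 largest and the smallest ranges, the 5 highest and 3 lowest per comparison, and others for completeness. Members and lists were chosen with earlier results of these data known. The calculation was tested on simulated data. Alternatives were centring on array medians or housekeeping genes, cyclic loess (limma 3.58.1, span 0.7, 3 iterations), averaging a gene's probe sets, using none whose suffix marks it as less specific, adding 32 to linear values, counting from the array median, requiring signal above it, and the other fold threshold. Python 3.11.15, numpy 2.4.6 and pandas 2.3.3 were used.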

Additional observations from a re-analysis of the deposited data

Results flagged for a closer look

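In naive and MDP-pretreated cells the difference between the ligands (Pam3CSK4 minus MDP) had opposite signs for 3 genes with at least 1 difference past 2-fold. Ifit1 was at -0.30 in naive cells and 1.25 after MDP, Ifit3 at -1.18 and 0.27, and Mx2 at -0.32 and 1.00. After MDP and after Pam3CSK4 the same difference was 1.25 and -0.26 for Ifit1, 1.00 and -0.71 for Mx2 and 1.01 and -0.19 for Daxx. For Mx1 (1.05 and -0.095) and Parp14 (1.12 and -0.0052) the second value is near 0, and its sign is not read as a reversal. The central range of all genes, without the extremes at each end, was -0.57 to 0.65 in naive cells, -0.78 to 0.97 after MDP and -0.27 to 0.29 after Pam3CSK4. The smaller value of each pair lay within it, except for Mx2 after Pam3CSK4 (-0.71). That range is over genes and gives no spread between cultures. Mx2 was read by 1 probe set, and its value after MDP barely reached 2-fold. None of the opposite signs is therefore read as a reversal. How many of all genes changed sign in this way was not counted. Each value is 1 array against 1, and the difference between them was not tested. The 18S ribosomal RNA control probe sets, which enter no comparison of genes, had a median 1.70 above unstimulated on the array of Pam3CSK4 before Pam3CSK4.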

How the results depend on the processing

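No paired analysis was possible because each condition has 1 array and all carry the same replicate number. Of 135 counts of genes past the threshold under alternative settings, 120 were within 1.5 times the reported count, and none of the 5520 values of single genes reversed a called direction. The list medians, taken as folds, moved by less than 1.5 times under all settings run. In log2, medians near 0 could still change in proportion or sign. That of Pam3CSK4 over MDP ran from 0.070 to 0.137 in naive cells and from -0.018 to 0.012 after Pam3CSK4. All 46 genes lay above the array median on all arrays. Counting from that median or requiring signal above it therefore could not change any value, and those entries among the 135 and 5520 were fixed in advance. The mean of probe sets could change only the 25 genes with several. Leaving out less specific probe sets changed nothing where the brightest was of another kind or where no other was left. Those gene values were fixed as well. With cyclic loess 2 genes were past 3-fold with a first MDP and 2 with a first Pam3CSK4, in place of 1 each, and with the mean of probe sets 0 were with Pam3CSK4. With 32 added to the linear values 3 genes in place of 5 were 2-fold higher with Pam3CSK4 after MDP. With 2-fold as the threshold over unstimulated the counts were 10 (first MDP), 7 (first Pam3CSK4), 23 (MDP before MDP) and 38 (MDP before Pam3CSK4). With 3-fold elsewhere they were 3 (MDP before MDP over first MDP), 21 (Pam3CSK4 before MDP), 19 (Pam3CSK4 before Pam3CSK4), 7 (MDP before Pam3CSK4), 0 (Pam3CSK4 over MDP after MDP), 0 and 8 (Pam3CSK4 over MDP pretreatment, Pam3CSK4 or MDP last). Among single genes 12 values, taken as folds, moved by over 1.5 times, in Cmpk2, Ifi213, Parp14, Rsad2, Xaf1 and Zbp1. Most of them moved with the mean of probe sets, and the cause was not tested. Zbp1 without less specific probe sets was at 3.07 over unstimulated in Pam3CSK4 before Pam3CSK4, in place of 2.46, and Ifi213 with 32 added at 3.45, in place of 4.04. With 1 array per condition no left-out replicate could be tried.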
